A study of Mus musculus with 16 samples.

Results

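The 9 genes described here are *Hoxa5*, *Hoxa7*, *Hoxa9*, *Hoxa10*, *Hoxb4*, *Hoxb5*, *Meis1*, *Pbx2* and *Pbx3*, taken by name as the Hox genes and Hox cofactors known for a role in hematopoietic stem cells (HSCs), out of 46078 genes in the count table. All 9 were in the table, and all 9 were among the 13661 genes that passed a filter on low counts. The RNA came from HSCs of B6.SJL mice of WT genotype, sorted from bone marrow as lineage-negative, Sca1+, cKit+ (LSK) cells that were CD48- and CD150+, and then split by surface MAC-1, the integrin of CD11b and CD18. There were 16 libraries of 5 populations: 3 of SS (steady state, untreated) MAC-1-, 3 of SS MAC-1low, 3 of 4wk MAC-1-, 4 of 4wk MAC-1low and 3 of 4wk MAC-1+ HSCs, where 4wk cells were taken 4 weeks after 8000 LSK cells were transplanted into recipients given a lethal dose of 900 cGy. Only a small number of sorted cells went into each library, which was made with SMART-Seq v4, a method that copies whole transcripts without molecular identifiers and without strand. The labels and methods give no age for the cells of a given library.

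Hox proteins are transcription factors that bind DNA through a homeodomain, a fold of helices of which the last lies in the major groove. In vertebrates their genes stand in clusters, and in blood the HoxA and HoxB clusters are the ones best known to be active, mostly in stem and progenitor cells, with levels falling on differentiation. A Hox protein alone is not very selective for a DNA site, and it binds with cofactors of the TALE class of homeodomain proteins, to which the Pbx and Meis families belong. Pbx proteins contact the Hox protein beside it, and Meis proteins hold Pbx in the nucleus and stabilise the complex. *Hoxa9* and *Meis1* are also the pair of genes kept high by MLL fusion proteins in leukaemia.

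The stretch of the coding sequence for the DNA-contacting helix is shown for 2 Hox and all 3 TALE members. It holds a codon that differs between the Hox, Meis and Pbx genes shown. Each run holds 51 bases on the coding strand, 5′ to 3′, from GENCODE M21 transcripts (GRCm38), and the capitals mark the codon just before the codon of the invariant asparagine of the homeodomain. That codon is for glutamine in both Hox genes shown, isoleucine in *Meis1* and glycine in both Pbx genes. In *Meis1*, *Pbx2* and *Pbx3* the run spans 2 exons, and the intron between them is left out.
Hoxa5 (chr6:52202638-52202688, minus strand): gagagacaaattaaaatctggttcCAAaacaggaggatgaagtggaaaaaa
Hoxa10 (chr6:52232560-52232610, minus strand): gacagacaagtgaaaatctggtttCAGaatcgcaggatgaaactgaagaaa
Meis1 (chr11:18885621-18905708, minus strand): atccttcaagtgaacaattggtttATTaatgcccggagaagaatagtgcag
Pbx2 (chr17:34594709-34594842, plus strand): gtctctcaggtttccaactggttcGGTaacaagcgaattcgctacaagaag
Pbx3 (chr2:34178301-34204788, minus strand): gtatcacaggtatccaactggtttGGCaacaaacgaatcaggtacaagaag

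In these runs *Hoxa5* and *Hoxa10* had 76.5% of bases in common. The 6 pairs of a Hox gene with a TALE gene had 37.3% to 54.9% in common, and *Pbx2* and *Pbx3* had 82.4%. *Meis1* had 49.0% in common with *Pbx2* and 47.1% with *Pbx3*, within the range of the Hox with TALE pairs. The runs as a whole thus did not separate the TALE genes from the Hox genes. The likeness matters for counting, since a read from a run that genes share could not be given to 1 of them. Over whole exons it was not found between members at 50 bases, as no member had a 50-base window in common with another member. With genes outside the 9, *Hoxa7* shared 18.7% of its windows, with the antisense gene *Hoxaas3*, and *Meis1* shared 17.0%, mostly with the overlapping transcripts *Gm37818* and *Gm16140*. *Pbx2* shared 4.93%, with its neighbour *Gpsm3*, *Hoxb5* shared 1.83%, with the antisense gene *Hoxb5os*, and *Hoxa5*, *Hoxa10* and *Pbx3* shared 0%. The libraries do not keep strand, so reads of a gene and its antisense partner cannot be told apart in these stretches.

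By the annotation, 4 members lie side by side on the minus strand of chromosome 6 in the HoxA cluster, *Hoxa5* at 52201754 to 52204587, *Hoxa7* at 52214491 to 52221854, *Hoxa9* at 52223100 to 52231089 and *Hoxa10* at 52231197 to 52240854. On chromosome 11 are *Hoxb5* (96303336 to 96306121) and *Hoxb4* (96318267 to 96321638), both on the plus strand of the HoxB cluster, and, far from them, *Meis1* (18879817 to 19018985, minus strand). *Pbx2* is on chromosome 17 (34591266 to 34597400, plus strand) and *Pbx3* on chromosome 2 (34171457 to 34373142, minus strand). The counts are per gene, so the isoform of *Hoxa9* that lacks the homeobox is not told apart from the full one.

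Total counts per library ran from 13781278 to 28580658, 14533 to 17576 genes had at least 1 count, and mitochondrial genes took 3.96% to 9.62% of counts. Levels are given as CPM, the counts of a gene brought to a common library total with edgeR's TMM factors. A count of 0 allows up to 3 counts in that library, which is 0.105 to 0.218 CPM of the totals before scaling and covers counting error only. The sort was checked on its transcripts, and all 8 HSC markers used, among them *Kit*, *Ly6a*, *Slamf1*, *Procr*, *Hlf*, *Mecom* and *Fgd5*, were detected in each of the 16 libraries. Their summed level was 691 to 890 CPM in 4wk MAC-1- HSCs, 1477 to 2086 CPM in both SS populations and 4wk MAC-1low HSCs, and 2271 to 3457 CPM in 4wk MAC-1+ HSCs. The 3 genes used as markers of cells outside the sorted gate, *Cd48* among them, summed to 81.3 to 302 CPM. In each population 2 or 3 of these were detected in every library. Of markers of other cells, the 6 megakaryocyte genes summed to 4135 to 6632 CPM in 4wk MAC-1- libraries and to at most 1044 CPM in any other. The 8 neutrophil genes summed to 164, 950 and 7255 CPM, from lowest to highest, in the 4wk MAC-1+ libraries and to at most 168 CPM elsewhere. Markers of monocytes and macrophages (6 genes, 346 to 762 CPM), T and NK cells (6 genes, 16 to 644 CPM), erythroid cells (6 genes, 34.1 to 184 CPM) and B cells (6 genes, 6.40 to 156 CPM) were read as well. *Pax5*, which defines B cells, had 0 counts in every 4wk library and was not at 0 throughout either SS population.

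Per kilobase of exon, which allows genes to be compared, *Hoxa9* had the highest median of the 9 over the 16 libraries, 28.3 CPM per kb (11.1 to 57.3), followed by *Meis1* with 23.3 CPM per kb (12.3 to 31.5). *Hoxa5* (11.9 CPM per kb), *Hoxa10* (8.06), *Pbx3* (4.96) and *Hoxa7* (4.24) were in between. *Hoxb5* (2.02 CPM per kb), *Pbx2* (1.90) and *Hoxb4* (0.968) were lowest. The ranges of neighbours in this order overlapped throughout, as the plot of levels per exon length shows. By population, *Meis1* had the higher mean of the pair in SS MAC-1low (21.3 against 15.7 CPM per kb) and 4wk MAC-1- HSCs (20.1 against 16.9), and *Hoxa9* in the other 3. Without division by length *Meis1*, whose exons are the longest, came first and *Hoxa9* second.

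**Figure D1:**
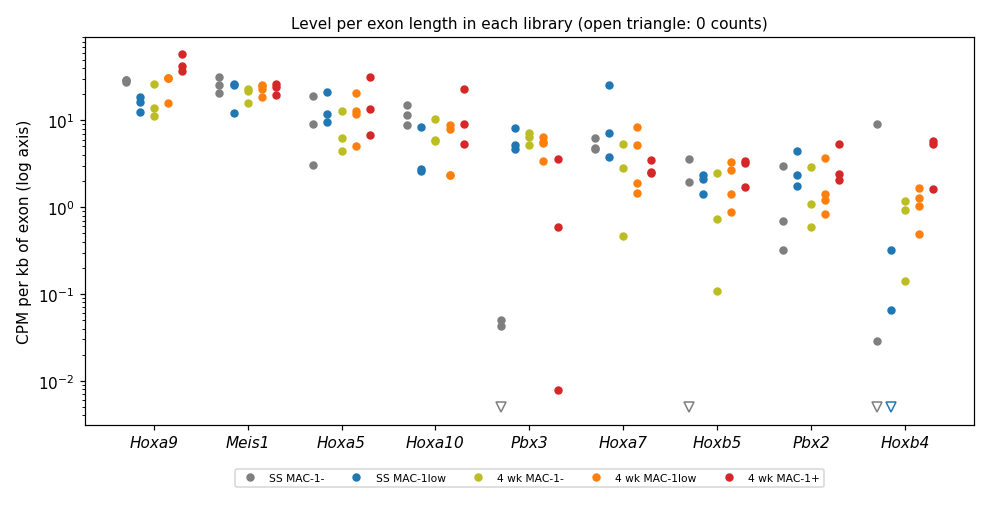
Level of each of the 9 genes in each of the 16 libraries, in CPM per kilobase of exon on a log axis, with genes ordered by their median and colours marking the 5 populations. *Hoxa9* and *Meis1* lay above 10 CPM per kb in every library, whereas *Pbx3*, *Hoxb5* and *Hoxb4* had libraries at 0 counts, drawn as open triangles.

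*Hoxa9*, the member whose loss is known to impair repopulation by HSCs, was highest in 4wk MAC-1+ HSCs. It had 236, 320 and 206 CPM (4969, 5090 and 5212 counts) in the 4wk MAC-1+ libraries and 144, 76.4 and 62.0 CPM (2294, 2016 and 1026 counts) in the 4wk MAC-1- libraries. The 4wk MAC-1low libraries had 170, 89.3, 173 and 171 CPM. Thus each 4wk MAC-1+ library lay above each of the other 13, and 4wk MAC-1low libraries overlapped with those of 4wk MAC-1-. In SS HSCs the order of the MAC-1 fractions was the other way round, with 163, 162 and 153 CPM in SS MAC-1- and 104, 69.5 and 89.5 CPM in SS MAC-1low libraries, again without overlap. By population the mean was 254 ± 58.9 (SD, n = 3) CPM in 4wk MAC-1+, 159 ± 5.34 (n = 3) in SS MAC-1-, 151 ± 40.9 (n = 4) in 4wk MAC-1low, 94.1 ± 43.8 (n = 3) in 4wk MAC-1- and 87.7 ± 17.4 (n = 3) in SS MAC-1low HSCs. In this order, 4wk MAC-1+ libraries did not overlap with those of SS MAC-1-, while the ranges of SS MAC-1- and 4wk MAC-1low, of 4wk MAC-1low and 4wk MAC-1-, and of 4wk MAC-1- and SS MAC-1low HSCs did.

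The comparison of 4wk MAC-1+ with 4wk MAC-1- HSCs asks what sets apart the fraction that gained MAC-1 after transplantation. In the former *Hoxa9* was higher by a log2 fold change of 1.43 (SE 0.34, adjusted p = 0.0418, edgeR's quasi-likelihood test, Benjamini-Hochberg over all genes tested), and a gene was called at an adjusted p below 0.1. It was the only one of the 9 called, beside 3.25% of all genes tested. Nothing in the labels says that replicates are separate animals, so p-values measure the spread between these libraries, which may be technical. In bulk samples such as these, fewer cells of a type and less RNA per cell cannot be told apart. The call ended without 4wk MAC-1- replicate 2 (adjusted p = 0.191) or 3 (0.188), without 4wk MAC-1+ replicate 2 (0.145) and in a model of only these 2 populations (0.1503), with a log2 fold change of 1.20 to 1.88 over the 16 fits that each left out 1 library. The megakaryocyte, HSC and neutrophil markers above moved between the same populations (*Pf4*, log2 fold change -5.25, and *S100a8*, 6.15, both called). The T and NK sums did not overlap either, with 323 to 644 CPM in 4wk MAC-1- and 16 to 176 CPM in 4wk MAC-1+ libraries. Erythroid sums were 48.7 to 83.4 CPM against 90.4 to 184 CPM, though the erythroid genes called went both ways. The part of all these markers in the *Hoxa9* result was not tested.

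The other members were not called between these populations. *Hoxb4*, which expands HSCs when overexpressed, had 13.8, 14.8 and 4.15 CPM (290, 236 and 105 counts) in 4wk MAC-1+ and 3.01, 2.35 and 0.362 CPM (48, 62 and 6 counts) in 4wk MAC-1- libraries. The groups did not overlap, but the spread was wide (log2 fold change 2.51, SE 2.07, adjusted p = 0.692, edgeR). *Pbx3*, a Hox cofactor best known as the partner of *Hoxa9* in leukaemia, stood apart the other way, with a log2 fold change of -2.18 (SE 1.21, adjusted p = 0.465, edgeR) that was -4.33 without 4wk MAC-1+ replicate 2 and -4.20 with limma-voom, which called it (0.0875). So *Hoxa9*, *Hoxb4* and *Pbx3*, or 3 of the 9, were without overlap, where 21.7% of all genes tested were. *Hoxa5* (1.15, SE 0.80), *Hoxb5* (1.34, SE 1.57), *Pbx2* (1.10, SE 1.12), *Hoxa10* (0.76, SE 0.74), *Meis1* (0.21, SE 0.27) and *Hoxa7* (-0.03, SE 0.96) had log2 fold changes within 2 standard errors of 0. Those of *Hoxb4* and *Pbx3* in the main edgeR fit were within 2 standard errors too.

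**Figure D2:**
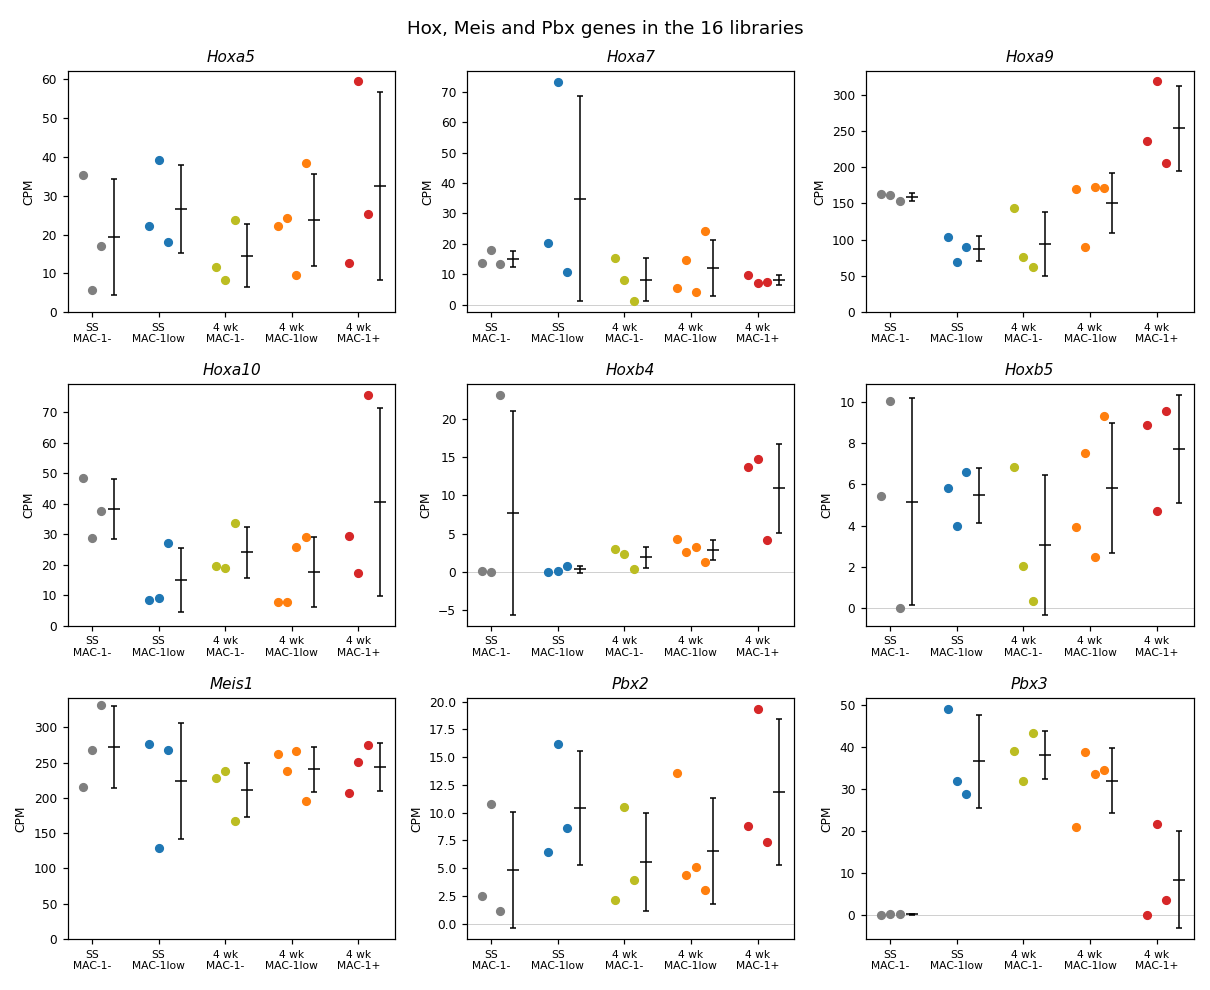
CPM of the 9 genes in the 16 libraries, 1 panel per gene with its own linear axis, where points are libraries and the bar beside them is the mean ± SD of the population (n = 3, or 4 for 4wk MAC-1low). *Hoxa9* lay between 206 and 320 CPM in 4wk MAC-1+ HSCs, above all other libraries, and *Pbx3* was at 0 to 0.308 CPM in the SS MAC-1- libraries.

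The 4wk MAC-1low HSCs have an intermediate level of MAC-1, and no member was called between them and either neighbour. Against 4wk MAC-1- HSCs 0 of the 9 were called, beside 0.278% of all genes tested. There 1 member, *Hoxa9*, was at an unadjusted p below 0.05 (log2 fold change 0.68, SE 0.31, adjusted p = 0.679, edgeR), as were 7.25% of all genes. DESeq2 and limma-voom called 0 members there too. For 4wk MAC-1+ against 4wk MAC-1low HSCs edgeR called 0 members, beside 0% of all genes (936 genes had an unadjusted p below 0.05, DESeq2 called 451 and limma-voom 1). The *Hoxa9* difference was 0.75 (SE 0.31, adjusted p = 0.690), and that of *Hoxa10*, known to act on myeloid and megakaryocytic progenitors, was 1.22 (adjusted p = 0.786), both in edgeR.

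*Pbx3* had the largest fitted differences of the 9 genes. In the SS MAC-1- libraries it had 0, 5 and 6 counts (0, 0.262 and 0.308 CPM), against 943, 570 and 558 counts (49.2, 31.9 and 28.8 CPM) in the SS MAC-1low libraries. The 4wk MAC-1- libraries had 39.2, 32.0 and 43.5 CPM, and the 4wk MAC-1low libraries had 20.96, 39.0, 33.6 and 34.6 CPM. In 4wk MAC-1+ HSCs it was spread from 1 count (0.0475 CPM) in replicate 1 to 344 counts (21.6 CPM) in replicate 2, with 92 counts (3.64 CPM) in replicate 3. Thus all libraries of the 3 populations SS MAC-1low, 4wk MAC-1- and 4wk MAC-1low had 342 counts or more, the SS MAC-1- libraries were all near 0, and the 4wk MAC-1+ libraries reached from one level to the other. *Pbx2*, the other Pbx member, had 2.49, 10.8 and 1.18 CPM in SS MAC-1- and 6.42, 16.2 and 8.61 CPM in SS MAC-1low libraries, which overlapped.

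Against SS MAC-1- HSCs, *Pbx3* was higher in 4wk MAC-1- HSCs by a log2 fold change of 7.56 (SE 1.56, adjusted p = 0.0793, edgeR), the 1 member called beside 0.432% of all genes tested. It was the 1 member called in 4wk MAC-1+ against SS MAC-1- HSCs as well (5.38, SE 1.43, adjusted p = 0.0870, edgeR), where 2.36% of all genes were, and that comparison shares its SS libraries with the former. Both calls were fragile. The first held without 4wk MAC-1+ replicate 1 (adjusted p = 0.00922) or 2 (0.0472) and ended without any 1 of the other 14 libraries (0.103 to 0.210), and the second held without 4wk MAC-1+ replicate 1 (0.0171) and ended without any 1 of the other 15 (0.107 to 0.312). The second log2 fold change fell to 3.18 without 4wk MAC-1+ replicate 2. DESeq2 called both (4.2e-08 and 1.8e-04), and limma-voom the first (0.0288) but not the second (0.427). In a model of only the 2 populations, the first had an adjusted p of 0.251.

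Between the SS populations, *Pbx3* was nearly as far apart, 7.50 on the log2 scale higher in SS MAC-1low HSCs (SE 1.56, adjusted p = 0.227, edgeR). edgeR called 0 of the 9 here, beside 0.0146% of all genes tested, with *Pbx3* and *Hoxa9* at an unadjusted p below 0.05, as were 9.36% of all genes. *Pbx3* was called by DESeq2 (adjusted p = 5.4e-08), which called 939 genes here where edgeR called 2, by edgeR without the filter on low counts (0.00238) and without 4wk MAC-1+ replicate 1 (0.0517), and limma-voom called 0 members. *Hoxa9* was lower in each SS MAC-1low than in each SS MAC-1- library, with a log2 fold change of -0.86 (SE 0.33, adjusted p = 0.517). *Hoxa10* showed the same order, at 48.6, 28.8 and 37.6 CPM in SS MAC-1- and 8.45, 9.06 and 27.1 CPM in SS MAC-1low libraries (-1.37, adjusted p = 0.592). So 3 of the 9, *Hoxa9*, *Hoxa10* and *Pbx3*, were without overlap between the SS populations, where 11.3% of all genes tested were.

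**Figure D3:**
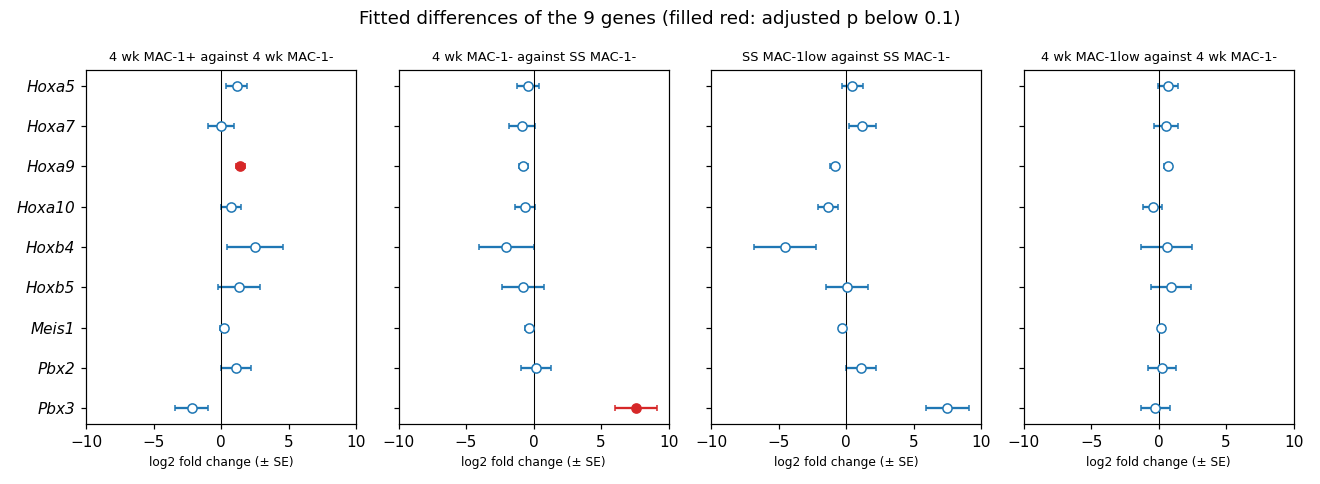
Fitted log2 fold changes of the 9 genes with their standard errors in 4 comparisons, 1 panel each, where filled red points have an adjusted p below 0.1 (edgeR). The red points are *Hoxa9* at 1.43 in 4wk MAC-1+ against 4wk MAC-1- and *Pbx3* at 7.56 in 4wk MAC-1- against SS MAC-1- HSCs, and the comparisons share libraries.

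The fitted value of *Hoxb4* in SS HSCs rested on 1 library. SS MAC-1- replicates 1 and 2 had 1 and 0 counts, and replicate 3 had 451 counts (23.1 CPM), the highest level of all 16 libraries. SS MAC-1low libraries had 0, 3 and 16 counts. The log2 fold change of SS MAC-1low against SS MAC-1- HSCs was -4.52 (SE 2.27, adjusted p = 0.556, edgeR), and it became 3.04 without SS MAC-1- replicate 3, so no direction can be given. The same library had 0 counts of *Hoxb5*, a gene used to mark long-term HSCs, whose level in SS MAC-1- replicates 1 and 2 was 5.43 and 10.1 CPM. In all other populations *Hoxb5* was detected in every library, with 5.84, 3.97 and 6.60 CPM in SS MAC-1low, 6.84, 2.01 and 0.302 CPM in 4wk MAC-1-, 3.92, 7.53, 2.47 and 9.33 CPM in 4wk MAC-1low and 8.88, 4.71 and 9.57 CPM in 4wk MAC-1+ libraries. The populations overlapped throughout, and *Hoxb5* was called in no comparison by edgeR.

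*Meis1*, needed for the quiescence of HSCs, was the steadiest member. Its mean was 272 ± 58.2 (SD, n = 3) CPM in SS MAC-1-, 224 ± 82.3 (n = 3) in SS MAC-1low, 212 ± 38.4 (n = 3) in 4wk MAC-1-, 240 ± 32.3 (n = 4) in 4wk MAC-1low and 244 ± 34.1 (n = 3) in 4wk MAC-1+ HSCs. The highest library was 2.56 times the lowest, against 5.16 times in *Hoxa9* and 55.1 times in *Hoxa7*. All 5 populations overlapped, and the largest fitted difference between any 2 of them was 0.36 on the log2 scale. The lowest library, SS MAC-1low replicate 2 with 129 CPM, was also the one with the highest *Hoxa7* level, 73.2 CPM.

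*Hoxa5*, *Hoxa7* and *Hoxa10*, the neighbours of *Hoxa9* in the cluster, varied widely within populations. *Hoxa5*, studied for its part in the choice between erythroid and myeloid fates, had 35.3, 5.66 and 17.0 CPM in SS MAC-1- and 12.6, 59.5 and 25.2 CPM in 4wk MAC-1+ libraries, and its population means ran from 14.6 to 32.4 CPM. *Hoxa7*, which is raised together with *Hoxa9* in MLL leukaemia, had its highest mean, 34.9 ± 33.6 (SD, n = 3) CPM, in SS MAC-1low HSCs through 1 library, and 8.11 ± 1.58 (n = 3) CPM in 4wk MAC-1+ HSCs (log2 fold change -2.10 for the latter against the former, adjusted p = 0.418, edgeR). Since *Hoxaas3* shares 20.4% of the exon bases of *Hoxa7* and had 310, 643 and 343 counts in 4wk MAC-1- against 7, 0 and 46 in 4wk MAC-1+ libraries, reads of *Hoxa7* and of its antisense gene cannot be told apart there. *Hoxa10* had 19.4, 18.8 and 33.8 CPM in 4wk MAC-1- and 29.3, 17.2 and 75.6 CPM in 4wk MAC-1+ libraries. None of these 3 was called in any comparison by edgeR, and over the 16 libraries, as a description, the Pearson r of log2 CPM of *Hoxa9* with another member ran from -0.45 (*Pbx3*) to 0.49 (*Hoxb4*).

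The 4wk populations were also compared with SS populations, of like MAC-1 level for MAC-1- and MAC-1low and of unlike level for 4wk MAC-1+ HSCs. In 4wk MAC-1- against SS MAC-1- HSCs, *Hoxa9* and *Pbx3*, 2 of the 9, were without overlap, where 16.6% of all genes tested were, and *Hoxa9* was lower at 4 weeks by a log2 fold change of -0.76 that was not called (adjusted p = 0.450, edgeR). In 4wk MAC-1low against SS MAC-1low HSCs 0 members were called, beside 0.0439% of all genes. *Hoxa9* was at an unadjusted p below 0.05 there (0.78, adjusted p = 0.527, edgeR), as were 8.89% of all genes. DESeq2 and limma-voom gave other totals there, 662 and 24 genes. In 4wk MAC-1+ against SS MAC-1low HSCs *Hoxa9* was called (1.53, SE 0.34, adjusted p = 0.0693, edgeR), the 1 member beside 1.42% of all genes, and the call held in 10 of the 16 fits that left out 1 library. It ended without SS MAC-1low replicate 1 (0.112), 2 (0.238) or 3 (0.157), without 4wk MAC-1low replicate 3 (0.1015) and without 4wk MAC-1+ replicate 1 (0.124) or 2 (0.177). It was 0.114 with limma-voom and 0.227 in a model of only these 2 populations. Against SS MAC-1- HSCs the *Hoxa9* difference was 0.67 (adjusted p = 0.381, edgeR).

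The step from MAC-1- to MAC-1low could differ between SS and transplanted HSCs, and this was tested with an interaction term. The step of *Hoxa9* was -0.86 in SS and 0.68 at 4 weeks, a difference of 1.54 (SE 0.46, adjusted p = 0.409, edgeR), and that of *Pbx3* was 7.50 in SS and -0.25 at 4 weeks, a difference of -7.76 (SE 1.78, adjusted p = 0.241, edgeR). Thus 0 of the 9 were called, beside 0.0586% of all genes tested. DESeq2 called both (adjusted p = 0.0339 and 1.2e-04), limma-voom called *Pbx3* (0.0943), and so did edgeR without 4wk MAC-1+ replicate 1 (0.0585). A joint test of any difference among the 5 populations called *Hoxa9* (adjusted p = 0.0918, edgeR), 1 of the 9, beside 2.22% of all genes tested, with *Pbx3* next at 0.104 (called without 4wk MAC-1+ replicate 1, at 0.0224, or 2, at 0.0627). With limma-voom the joint test called *Pbx3* (0.0266) and not *Hoxa9* (0.123). The *Hoxa9* call held without 4wk MAC-1- replicate 1 (0.0433) or 4wk MAC-1low replicate 2 (0.0530) and ended without any 1 of the other 14 libraries (0.116 to 0.218).

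Of the 33 other clustered Hox genes, 5 had 0 counts in all 16 libraries and 6 could be tested. These were 3 of the 7 other *Hoxa* genes and 3 of the 8 other *Hoxb* genes, with levels up to 44.0 CPM (*Hoxa2*) and 11.3 CPM (*Hoxb7*, not tested) in a library. None of the 9 *Hoxc* and 9 *Hoxd* genes passed the filter, and the *Hoxd* genes reached at most 0.112 CPM, within the level that a count of 3 gives. In 4wk MAC-1+ against 4wk MAC-1- HSCs 0 of the 6 were called, beside 3.25% of all genes tested. At an unadjusted p below 0.05 there were 0 as well, beside 13.4% of all genes, and 6 genes are too few to tell these shares apart. The median log2 fold change was 0.61, beside 0.07 over all genes tested. The median is the same with *Hoxa4*, whose libraries were all at 0 in 1 of the groups, set to the bound that 3 counts per library give.

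MLL and its partners keep Hox genes active through methylation of histone H3. Of a list of 16 genes of the MLL complex and other upstream regulators of Hox genes, 13 could be tested. In 4wk MAC-1+ against 4wk MAC-1- HSCs 1 rose and 1 fell, beside 3.25% called of all genes (median log2 fold change 0.80, beside 0.07 over all genes). This list too was chosen with earlier results of these data known, and the study had already reported that *Mllt3* rose with MAC-1 in 4wk HSCs. *Mllt3*, a reader of acetylated and crotonylated histones that upholds HSC self-renewal, had 627, 469 and 493 CPM in 4wk MAC-1+ and 216, 129 and 210 CPM in 4wk MAC-1- libraries (1.52, SE 0.27, adjusted p = 0.00992, edgeR). *Dpy30*, a core subunit shared by the MLL and SET1 complexes, had 418, 469 and 441 CPM against 759, 974 and 751 CPM (-0.90, SE 0.16, adjusted p = 0.00992, edgeR). Neither overlapped, and the SS libraries of both lay between the groups or within them.

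All 14 genes described as targets of HOXA9 or MEIS1 in blood or leukaemia cells could be tested, and 4 rose and 1 fell, beside 3.25% called of all genes, in 4wk MAC-1+ against 4wk MAC-1- HSCs (median log2 fold change 1.14, beside 0.07 over all genes). The list was chosen with earlier results of these data known. Its count and median are therefore a description, and activity of HOXA9 or MEIS1 was not tested. The study had already reported that *Hlf* rose with MAC-1 in 4wk HSCs. *Hlf*, a transcription factor of stem cells, had 910, 499 and 594 CPM against 57.0, 87.2 and 56.7 CPM (3.32, SE 0.45, adjusted p = 0.00171, edgeR). It is also 1 of the 8 HSC markers above. *Sox4* (2.19, SE 0.53, adjusted p = 0.0468), a factor of lymphoid and leukaemic progenitors, *Msi2* (1.39, SE 0.36, adjusted p = 0.0658), an RNA-binding protein of HSCs, and *Myb* (0.89, SE 0.24, adjusted p = 0.0816), a regulator of progenitor proliferation, rose as well. *Msi2* overlapped narrowly between groups (98.4 CPM in 1 of the 4wk MAC-1- and 94.5 CPM in 1 of the 4wk MAC-1+ libraries), and so did *Myb*. *Cdk6*, a kinase that drives HSCs out of quiescence, fell, with 61.4, 93.8 and 44.5 CPM against 288, 288 and 228 CPM (-2.01, SE 0.33, adjusted p = 0.00563, edgeR).

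In the other comparisons 0 to 2 of the 14 targets were called. *Hlf* was higher in 4wk MAC-1low than in 4wk MAC-1- HSCs (2.43, adjusted p = 0.0326, edgeR), where 0.278% of all genes were called. It was lower in 4wk MAC-1- than in SS MAC-1- HSCs (-2.30, adjusted p = 0.0529, edgeR). *Myb* was lower there too, beside 0.432% of all genes called. *Cdk6* was lower in 4wk MAC-1+ than in SS MAC-1low HSCs (-1.60, adjusted p = 0.0523, edgeR), where 1.42% of all genes were called. A further 1 of the 14 was higher in 4wk MAC-1+ than in SS MAC-1- HSCs, where 2.36% were. Between the SS populations 0 of the 14 were called, beside 0.0146% of all genes, with 4 at an unadjusted p below 0.05, beside 9.36% of all genes. Against SS MAC-1- HSCs that number was 9 in 4wk MAC-1- (10.4% of all genes) and 9 in 4wk MAC-1+ HSCs (14%). In 4wk MAC-1low against SS MAC-1low HSCs it was 0 (8.89%). The joint test called *Mllt3* and *Dpy30*, 2 of the 13 upstream genes tested, and *Cdk6* and *Hlf*, 2 of the 14 targets, beside 2.22% of all genes. The plot of upstream and target genes gives all libraries.

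**Figure D4:**
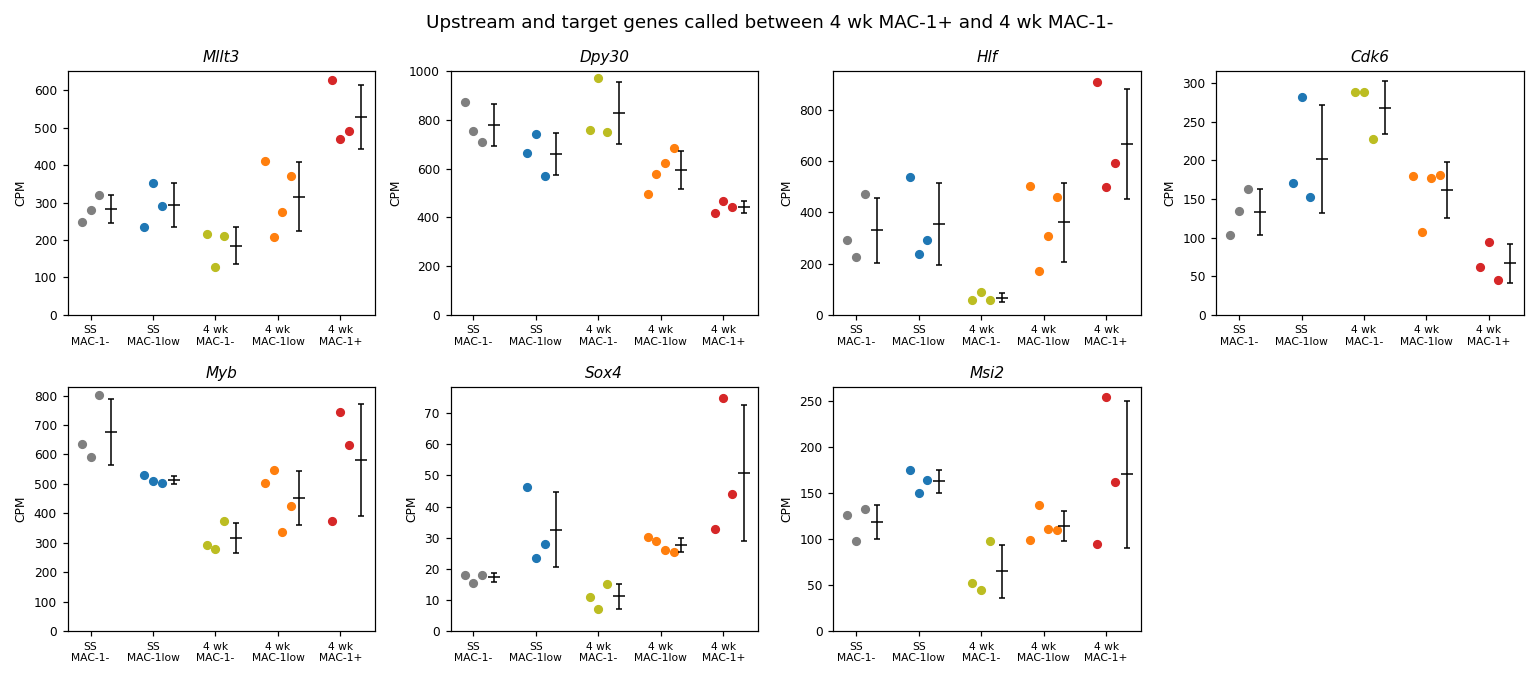
CPM of the 7 upstream and target genes called between 4wk MAC-1+ and 4wk MAC-1- HSCs, with points for libraries and bars for the mean ± SD of each population (n = 3, or 4 for 4wk MAC-1low). *Hlf*, *Mllt3*, *Sox4*, *Msi2* and *Myb* were higher and *Dpy30* and *Cdk6* lower in 4wk MAC-1+ than in 4wk MAC-1- HSCs.

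The genes most like *Hoxa9* over the 16 libraries, by Pearson correlation of log2 CPM among all genes tested, were *Ocrl* (r = 0.88), *Ptprc* (0.84) and *Man1a* (0.84). For *Hoxb5* they were *Dync2li1*, *B430212C06Rik* and *Sel1l* (0.90, 0.90 and 0.89), and for *Meis1* they were *Ufl1* (0.92), *Idua* (0.91) and *Map4* (0.89). These are the highest values among 13661 genes over 16 libraries that share depth and population, and they are a description only.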

How the data were processed

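RNA-seq of sorted HSCs was deposited by the authors as 1 table of counts, whole reads per gene and library without normalization, for which reads were aligned by STAR within nf-core. Which program counted the reads, on which genome build and annotation, is not given in the sources used here. Samples and columns were matched by their labels. Coordinates, lengths and overlaps come from GENCODE M21 (GRCm38), which held 98.2% of the gene identifiers, and not from the authors' annotation. Totals per library and their precision are given above.

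Tests were run with edgeR 4.0.16 in R 4.3.3 (TMM factors, default filter on low counts, robust quasi-likelihood test, 1 model of all 16 libraries, common biological coefficient of variation 1.13). SE is the absolute log2 fold change divided by the square root of F. Adjusted p are Benjamini-Hochberg values over all genes tested, called below 0.1. log2 CPM used a prior count of 2. The test was first run on simulated counts. Within populations, libraries differed by more than sampling noise (chi-square per degree of freedom 88.7 to 196), so that none was a copy of another. The members and gene lists were chosen with earlier results of these data known. The submitters' processing notes name DESeq2. Named were the 9 members, list genes called in 4wk MAC-1+ against 4wk MAC-1- HSCs or in the joint test, overlapping noncoding genes, and the 3 genes most like *Hoxa9*, *Hoxb5* and *Meis1*. *Hoxa2*, *Hoxa4* and *Hoxb7* were named after their values were seen, as were the marker genes *Pf4*, *S100a8* and *Pax5*. Some genes and sequences are not reported here. Alternatives were DESeq2 1.42.0, limma-voom (limma 3.58.1) with sample weights, no filter, size factors of DESeq2 in place of TMM, only the populations compared, a replicate block, other thresholds, levels without division by length and leaving out each library.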

Additional observations from a re-analysis of the deposited data

Results flagged for a closer look

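*Hoxa9* in 4wk MAC-1low HSCs had 1 library far from the other 3. Replicate 2 had 89.3 CPM and the others 170, 173 and 171 CPM, so that the gap from the lowest to its nearest neighbour was 0.966 of the whole range, above Dixon's 95% critical value for 4 samples. This was 1 of 9 genes tested in this way, in the 1 population with 4 libraries, and chance gives about 1 such case in 20. Without this library the joint test of *Hoxa9* had an adjusted p of 0.0530 (edgeR), against 0.0918 with it.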

How the results depend on the processing

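Of the 10 counts of members called, none of the alternatives moved a count by more than 2 genes, and no fold change of a called member changed direction. For 4wk MAC-1+ against 4wk MAC-1- HSCs 1 member was called, 2 with limma-voom (*Pbx3* added) and 0 in a model of only these populations. For SS MAC-1low against SS MAC-1- HSCs the count of 0 became 1 with DESeq2 and 1 with no filter. For 4wk MAC-1- against SS MAC-1- and 4wk MAC-1+ against SS MAC-1- HSCs the count of 1 became 0 at a threshold of 0.05, 0 in a model of only the populations compared and 0 with the replicate block, and the second also 0 with limma-voom. *Pbx3* did not pass the filter in the model of only 4wk MAC-1+ and SS MAC-1- HSCs and has no fold change there. For 4wk MAC-1+ against SS MAC-1low HSCs the count of 1 became 0 at 0.05, with limma-voom and with only these populations. For the interaction the count of 0 became 2 with DESeq2, 1 with limma-voom and 1 with no filter, and for the joint test the count of 1 (*Hoxa9*, with limma-voom *Pbx3* in its place) became 2 with DESeq2, 2 with no filter, 0 at 0.05 and 0 with the replicate block. Leaving out each library in turn gave 0 to 1 members for each of these 7 comparisons and 0 for the other 3. The causes were not tested.

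With the replicate number as a block, *Pbx3* had log2 fold changes of 7.90 (adjusted p = 0.149) and 5.01 (0.203) against SS MAC-1- in 4wk MAC-1- and 4wk MAC-1+ HSCs, and *Hoxa9* in 4wk MAC-1+ against 4wk MAC-1- HSCs kept its call (0.0548, edgeR). By replicate number, the deviations of the 30 same-numbered pairs correlated at -0.02 to 0.04, beside -0.03 to 0.03 in the 72 other pairs. These are all pairs of libraries from different populations, with pairs of an SS and a 4wk library among them. The values could therefore miss a pairing of MAC-1 fractions sorted from the same marrow, and they do not decide whether libraries were paired. The column labels number the 4wk libraries in an order that differs from the replicate numbers, and a block by that order was not fitted. DESeq2's size factors moved none of the 45 population means by more than 1 SD. Depth limits what can be said of *Hoxb4*, *Hoxb5* and *Pbx3* where a library had under 10 counts. With few cells per library, a gene at 0 was not detected there, and whether it was absent cannot be told.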

Other observations

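Some Hox genes outside the 9 were read in a few libraries and at 0 in the rest. *Hoxb7* had counts in 3 of 16 libraries, up to 238 counts, *Hoxb9* in 3, up to 162 counts, and *Hoxc6* in 4, up to 125 counts. These genes were named after their values were seen.

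*Hoxaas3*, antisense to *Hoxa7*, had 19.5, 24.4 and 20.7 CPM in 4wk MAC-1- libraries, and its log2 fold change in 4wk MAC-1+ against 4wk MAC-1- HSCs was -4.89 (adjusted p = 0.348, edgeR). *Mir196b*, which lies within *Hoxa9*, had 0 counts in all 16 libraries. *Hoxb5os*, antisense to *Hoxb5*, had 0 to 527 counts per library.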
